A study of Drosophila melanogaster with 12 samples.

Results

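The genes described here are the 31 genes of the fruit fly whose probe sets carry a single symbol beginning with Vha in the annotation of the Affymetrix Drosophila Genome 2.0 array, of 11982 genes with a probe set of their own. The probe set with the highest mean signal over all arrays stood for each gene. They code for subunits of the vacuolar proton ATPase (V-ATPase) and its accessory proteins. Of the 31, 12 are the gene of each subunit known from ion-transporting epithelia such as the Malpighian tubule, the kidney of the fly, and are called widely expressed here. Another 17 are further copies (paralogs) of the same subunits, and 2 are accessory proteins. Vha68-1 and Vha68-2, the other genes of the catalytic A subunit, were not analysed here.

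Total RNA of whole flies was measured on 12 arrays, 3 for each of 4 groups: male tko25t, male wild type, female tko25t and female wild type. The tko gene lies on the X chromosome and encodes mitoribosomal protein S12, and tko25t is a mutant allele of it. Mutant flies came from homozygous Canton S tko25t mothers and Oregon R tko25t fathers, so that females carried the allele on both X chromosomes and males on their only one, while wild-type flies came from Canton S and Oregon R parents without it. All flies were 1 day old hybrids of these strains raised on a common medium, the females were virgins, and each array held RNA of its own group of flies. The allele is present in every cell, mutant flies also had mutant mothers, and whole flies mix all tissues, so that fewer cells of a type and less RNA per cell cannot be told apart.

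The V-ATPase uses ATP to pump protons across membranes. Its V1 sector, which lies in the cytosol, hydrolyses ATP and turns a central shaft, and its V0 sector in the membrane holds a ring of proteolipids that the shaft rotates past the a subunit, which provides the path for protons. The enzyme acidifies endosomes, lysosomes and synaptic vesicles in all cells, and at the plasma membrane of insect epithelia it energises fluid secretion. In Drosophila most subunits have a gene used in many tissues, and several have further copies expressed mainly in the testis.

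The deposited values are MAS5 signals, the linear brightness that the array software gives to each probe set. Log2 fold changes were computed on log2(signal + 11.6), with an offset near the background, which lowers the change of dim probe sets, and a gene was called where the adjusted p of limma was under 0.05. SE is the standard error of the log2 fold change. All 31 members were among the brighter probe sets tested in males, but only 20 among those tested in females. The 25th percentile of signal ran from 9.3 to 17.1 and the median from 37.8 to 55.6 over the arrays. Signals of 18S ribosomal RNA differed strongly between the males, at 69.1 to 133.9 in tko25t males and 1352 to 2058 in wild-type males with the 3′ probe set. In females this probe set had 40.1 to 61 in tko25t and 73.8 to 102.8 in wild-type flies, while the other 18S probe sets overlapped. The labels name no batch, so in males genotype and whatever lay behind the 18S difference cannot be told apart. Eggshell and yolk transcripts were high on replicates 1 and 2 of the wild-type males (summed signal of 13 genes 5265 and 3154, against 447 on replicate 3), and testis and accessory gland transcripts were highest among females on replicate 1 of the tko25t females (summed signals 1498 over 15 testis genes and 2769 over 11 accessory gland genes). Counts are therefore also given without these 3 arrays.

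Widely expressed V-ATPase genes were higher in tko25t males than in wild-type males. Of the 12, 9 rose, none fell and 3 did not pass the test, with a median log2 fold change of 0.38 against -0.01 over all 9948 probe sets tested, of which 5.59% were called higher. Over all 31 members 11 rose and 1 fell, and 11.3% of all probe sets were called in either direction. All 12 values were above 0, as were 48.3% of all probe sets. On 10 of the 12 genes all 3 tko25t males lay above all 3 wild-type males, as 15.5% of all probe sets tested did. The changes were small, with ratios of mean signal from 1.01 to 1.62. With 1 of the 6 male arrays left out 4 to 6 members were called. Vha44, Vha14-1, VhaSFD and VhaM9.7-b were called each time, and the calls of Vha36-1, VhaPPA1-1, VhaAC45 and Vha68-3 were lost each time. Without the 3 arrays named above only 1 wild-type male array is left, and no member was called, while the median of the 12 genes was 0.39.

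The largest of these changes was that of Vha44. It encodes subunit C, which ties V1 to V0 and is released when the enzyme comes apart reversibly. Its signal was 1601, 1470 and 1640 in tko25t males, against 939, 987 and 990.3 in wild-type males. The mutant values were all above the wild-type values by a wide gap, and the log2 fold change was 0.68 (SE 0.09, adjusted p = 0.0031). SAM, the kind of test used in the study, was also run on linear signals with a fold above 1.5, but without the study's prefilter on detection. It called 352 probe sets in males, and Vha44 was the only member among them.

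The H subunit, encoded by VhaSFD, is known from yeast to silence V1 once it is free. VhaSFD had signals of 1892, 1851 and 2009 in tko25t males, against 1203, 1372 and 1393 in wild-type males, without overlap. It rose by a log2 of 0.53 (SE 0.10, adjusted p = 0.0109).

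The E and G subunits form the peripheral stalks that hold the head of V1 still. Vha26, the E subunit, had 4395, 4302 and 4427 in tko25t males, against 3169, 3669 and 3214 in wild-type males. Vha13, the G subunit, had 2833, 2921 and 2632 in tko25t males, against 2050, 2021 and 2130.1 in wild-type males. Neither gene overlapped between genotypes, and both rose, Vha26 by a log2 of 0.39 (adjusted p = 0.0385) and Vha13 by 0.43 (adjusted p = 0.0189).

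The D and F subunits form the shaft that turns inside V1. Vha14-1, the F subunit, had 2034, 2023 and 2096 in tko25t males, against 1224, 1404 and 1497 in wild-type males. Vha36-1, the D subunit, had 1089, 1067 and 1064 in tko25t males, against 782, 889 and 873 in wild-type males. Both were without overlap and called higher, with log2 fold changes of 0.58 for Vha14-1 (SE 0.10, adjusted p = 0.00964) and 0.34 for Vha36-1 (SE 0.09, adjusted p = 0.045).

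Vha55, the B subunit, which binds nucleotide at the sites where A and B meet, was the only widely expressed V1 gene not called. Its signals were 2033 to 2194 in tko25t males, against 1458 to 1840 in wild-type males, again without overlap (log2 fold change 0.35, SE 0.11, adjusted p = 0.0674).

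Among the widely expressed V0 genes, VhaM9.7-b had the largest log2 fold change. It encodes the small membrane subunit e, and had 1850, 1806 and 1996 in tko25t males, against 1198, 1312 and 1378 in wild-type males. The groups did not overlap, and the log2 fold change was 0.54 (SE 0.10, adjusted p = 0.0104). Vha100-2, the a subunit expressed in many tissues, had 1285, 1205 and 1407 in tko25t males, against 976, 1052 and 987 in wild-type males. It was called higher with a log2 fold change of 0.36 (adjusted p = 0.0412).

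The proton ring is built from c and c'' proteolipids. VhaPPA1-1, the c'' subunit, had 1912, 1744 and 1843 in tko25t males, against 1493, 1355 and 1457 in wild-type males, without overlap, and rose by a log2 of 0.35 (adjusted p = 0.0407). Vha16-1, the c subunit, had 4346, 4470 and 4115 in tko25t males, against 3256, 4176 and 3335 in wild-type males. Here replicate 2 of the wild-type males reached into the mutant range, and the log2 fold change of 0.27 (SE 0.12) was not called (adjusted p = 0.168). VhaAC39-1, the d subunit that joins the ring to the shaft, had the smallest change of the 12. It had 1442, 1349 and 1484 in tko25t males, against 1314, 1494 and 1426 in wild-type males, fully overlapping, with a log2 fold change of 0.01 (SE 0.10, adjusted p = 0.939).

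**Figure D1:**
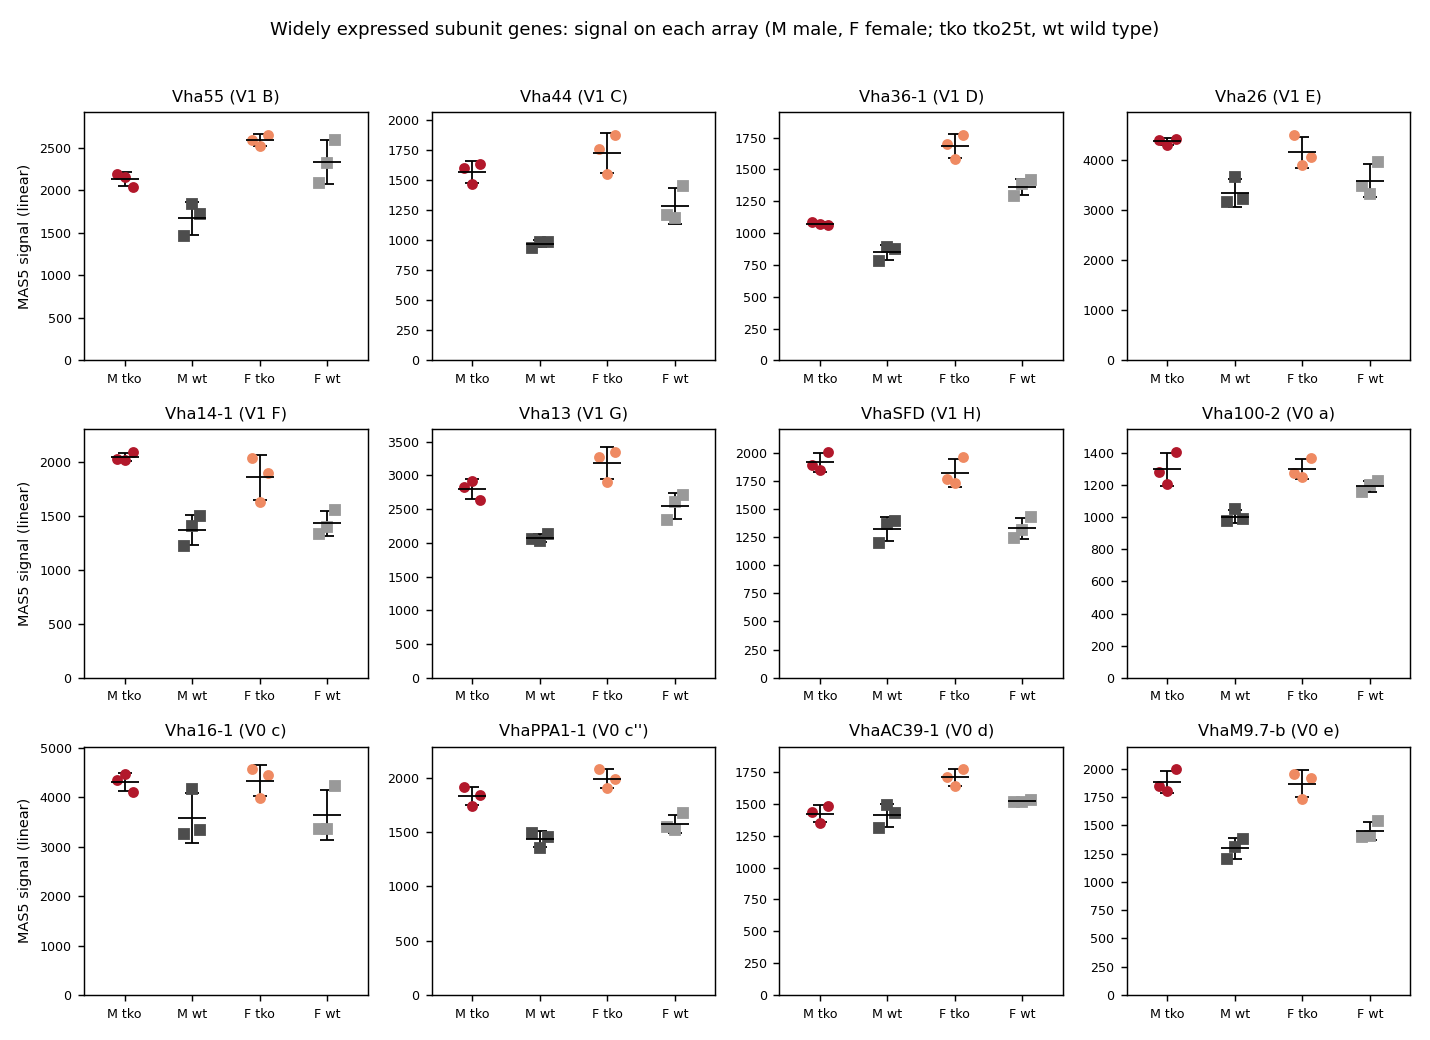
MAS5 signal (linear scale, from 0) of the 12 widely expressed V-ATPase genes on each array, by sex and genotype; points and squares are arrays, the wide line is the mean and the bars are 1 SD (n = 3). In males 10 of the 12 genes have all tko25t arrays above all wild-type arrays and in females 9 do, while VhaAC39-1 overlaps between the genotypes in males.

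In females the widely expressed genes had the same sign throughout, but none was called. All 12 log2 fold changes were above 0, from 0.12 to 0.45, with a median of 0.31 against -0.04 over all 9760 probe sets tested, of which 2.04% were called, 1.43% as higher, and 41.2% had a value above 0. Of 8225 probe sets tested in both sexes, 29.9% had values above 0 in both, as did all 12 genes here. At an unadjusted p under 0.05 there were 7 of the 12 genes, against 1408 of all 9760 probe sets, and the smallest adjusted p of the 12 was 0.076. On 9 of the 12 genes all tko25t females lay above all wild-type females (9.63% of all probe sets tested), and on 8 this held in both sexes (4.67% of those tested in both). SAM called no member in females either.

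VhaSFD, the H subunit, had the smallest of these p-values, with 1770.0, 1730 and 1961 in tko25t females, against 1246, 1317 and 1431 in wild-type females. The genotypes did not overlap (log2 fold change 0.45, SE 0.10, adjusted p = 0.076). Vha44, the C subunit, had 1763, 1552 and 1879 in tko25t females, against 1210, 1185 and 1456 in wild-type females, also without overlap (log2 fold change 0.43, SE 0.12, adjusted p = 0.14). The smallest change was that of Vha100-2, with 1277, 1251 and 1373 in tko25t females, against 1159, 1198 and 1224 in wild-type females (log2 fold change 0.12, SE 0.09, adjusted p = 0.592). VhaAC39-1, which overlapped between the genotypes in males, did not do so in females: it had 1713, 1645 and 1774 in tko25t females, against 1516, 1515 and 1531 in wild-type females (log2 fold change 0.17, SE 0.09, adjusted p = 0.431).

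The remaining widely expressed genes had changes between these in females. VhaM9.7-b had 1735 to 1952 in tko25t females, against 1400 to 1538 in wild-type females. VhaPPA1-1 had 1907 to 2080 in tko25t females, against 1519 to 1672 in wild-type females. Vha36-1 had 1581 to 1771 in tko25t females, against 1288 to 1415 in wild-type females. These 3 genes did not overlap between the genotypes, with log2 fold changes of 0.36, 0.33 and 0.30. Vha14-1 had 1631 to 2044 in tko25t females, against 1336 to 1561 in wild-type females. Vha13 had 2908 to 3346 in tko25t females, against 2331 to 2705 in wild-type females. Both again were without overlap, with log2 fold changes of 0.37 and 0.32. The genes that overlapped were Vha55, Vha26 and Vha16-1, each because 1 wild-type array, replicate 3, reached the mutant range.

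Averaged over the sexes in a fit of all 12 arrays, 11 members were called higher and none lower in tko25t flies, against 5.58% of 11483 probe sets called higher and 2.89% lower. They were the same 11 genes that rose in males. Among them were 9 of the 12 widely expressed genes, whose median over all 12 was 0.33. Vha44 had the smallest adjusted p (log2 fold change 0.56, SE 0.07, adjusted p = 6.84e-04). Of the 11, 8 were called with any 1 of the 12 arrays left out: Vha44, Vha36-1, Vha14-1, Vha13, VhaSFD, VhaPPA1-1, VhaM9.7-b and VhaAC45. Once the 3 arrays named above were left out, 3 were called: Vha44, VhaSFD and VhaM9.7-b. The difference of the genotype effect between the sexes was called for no member (smallest adjusted p = 0.151), as for nearly all of the array, where 0.105% of probe sets were called. At an unadjusted p under 0.05 there were 3 of the 31 members, against 1472 of all 11483 probe sets. They were Vha100-5, Vha100-1 and Vha14-2, the last with female signals near background.

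Array by array, the mean deviation of the 12 widely expressed genes from their means over all arrays, on the log2 scale, was 0.09 to 0.14 in tko25t males, against -0.37 to -0.22 in wild-type males. In females it was 0.13 to 0.28 in tko25t flies, against -0.14 to 0.05 in wild-type flies. The 4 groups therefore did not overlap by genotype within a sex, and the highest wild-type value was that of replicate 3 of the females. Leaving out each female array in turn left the median of the 12 genes between 0.26 and 0.36.

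Transcripts of tissues rich in the V-ATPase gave the following values. The summed signal of 2 Malpighian tubule genes of the 4 on that list was 479 to 542 in tko25t males, against 509 to 616 in wild-type males, and 605 to 680.0 in tko25t females, against 524 to 544 in wild-type females. That of 10 gut genes was 20151 to 32750 in tko25t males, against 21427 to 22955 in wild-type males, and 34340 to 37204 in tko25t females, against 22287 to 24118 in wild-type females. The tubule and gut sums thus overlapped between the genotypes in males, whereas both were higher without overlap in tko25t females, where 7 of the 10 gut genes were called higher. In males 2 of the 10 gut genes were called higher and 9 had log2 fold changes above 0, with a median of 0.60. The tubule sum held Irk3 and ZnT35C, while Uro and CapaR of that list were not matched to a probe set. In females Irk3 had a log2 fold change of 0.54 (adjusted p = 0.15) and ZnT35C 0.11 (adjusted p = 0.759), and neither was called. In males they had -0.07 and -0.08. The study listed Uro as higher in tko25t flies of both sexes, though in males short of its threshold. The part of the gut and tubule in the values of the V-ATPase genes was not tested. Larval fat body transcripts were also higher in tko25t males (3 of 3 genes called, of 6 listed), with summed signals of 3358 to 9245 in tko25t males, against 775 to 1251 in wild-type males. In females the sums were 284 to 5094 in tko25t flies, against 200 to 812 in wild-type flies, and overlapped. The female log2 fold changes were 3.64 for Fbp1, 3.39 for Fbp2 and 1.09 for Lsp2, none of them called.

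**Figure D2:**
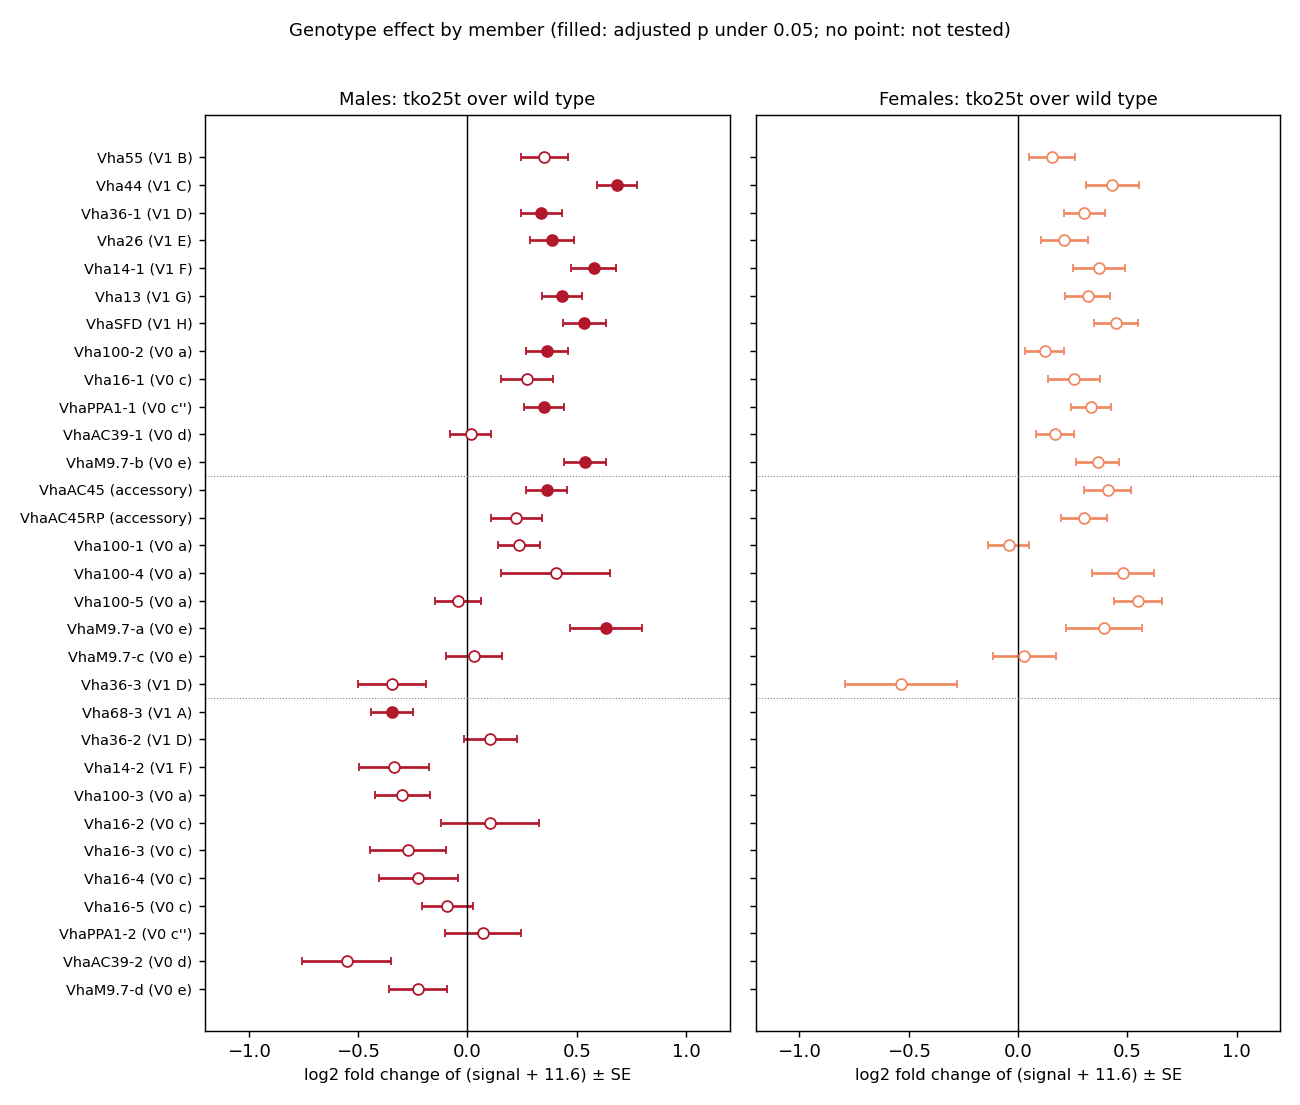
Log2 fold change of signal plus offset, tko25t over wild type, in males on the left and females on the right, with bars of 1 SE for each member; filled points passed an adjusted p under 0.05 and a member with no point was not tested in females. The 12 widely expressed genes lie at or right of 0 in both sexes (0.01 to 0.68 in males and 0.12 to 0.45 in females), while the lower block of 11 paralogs lies between -0.55 and 0.11 in males.

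The accessory subunit VhaAC45, which binds V0 and takes part in its assembly and sorting, had values in the range of the widely expressed genes. Its signals were 2160.1, 2017 and 2200 in tko25t males, against 1573, 1746 and 1637 in wild-type males, and 2194, 1983 and 2319 in tko25t females, against 1590, 1509 and 1782 in wild-type females. The genotypes did not overlap in either sex, and the gene was called in males (log2 fold change 0.36, adjusted p = 0.0381) and in the average over the sexes (0.39, adjusted p = 0.00424), but not in females (0.41, adjusted p = 0.118). VhaAC45RP, a related protein, had 319 to 388 in tko25t males, against 263 to 315 in wild-type males, and 218 to 229.8 in tko25t females, against 167 to 191 in wild-type females. It too was without overlap in both sexes, with log2 fold changes of 0.22 in males and 0.30 in females that were not called (adjusted p = 0.247 and 0.238).

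The paralogs of the subunits gave mixed values. Of the 17, 1 rose and 1 fell in tko25t males, with a median log2 fold change of -0.09, and 15 did not pass the test. Over all probe sets tested in males 5.59% were called higher and 5.74% lower, so these counts were near the share of the whole array. All tko25t males lay above all wild-type males for 2 of them, VhaM9.7-a and Vha100-1, and below for 4, Vha36-3, Vha68-3, Vha100-3 and VhaAC39-2 (18.5% of all probe sets lay below). In females 6 of the 17 were tested and none was called. At an unadjusted p under 0.05 (limma) there were 2 of the 6, against 1408 of all 9760 probe sets. The 6 are Vha100-1, Vha100-4, Vha100-5, VhaM9.7-a, VhaM9.7-c and Vha36-3, which had signal in both sexes, and the other 11 are described further on.

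VhaM9.7-a, a further e subunit gene, was the paralog that rose. It had 203, 202 and 239 in tko25t males, against 137, 103 and 168 in wild-type males, without overlap (log2 fold change 0.63, SE 0.17, adjusted p = 0.0402). This call was kept in 1 of 6 fits with 1 male array left out, the one without replicate 3 of the wild-type males, and the log2 fold change was 0.32 (adjusted p = 0.341) without the 3 arrays named above. Its call in the average over the sexes was kept in 2 of 12 such fits. In females it had 147, 96.9 and 146 in tko25t flies, against 95, 101 and 88.9 in wild-type flies, where replicate 2 of the mutants lay inside the wild-type range and the log2 fold change of 0.39 was not called (adjusted p = 0.351). It was called in females once that array was left out (0.57, adjusted p = 0.0497). VhaM9.7-c, another copy, had 163, 168 and 188 in tko25t males, against 174, 146 and 190.2 in wild-type males, and 228, 288 and 239 in tko25t females, against 282, 248 and 211 in wild-type females. Its groups overlapped in both sexes, with log2 fold changes of 0.03 in each.

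The a subunit has 5 genes on the array. Vha100-5 had the largest female log2 fold change among the members. It had 449.7, 434 and 512 in tko25t females, against 290.3, 322 and 330 in wild-type females, and 286, 314 and 314 in tko25t males, against 285, 319 and 339 in wild-type males. The genotypes were far apart in females and overlapped in males, but the female change was not called (log2 fold change 0.55, SE 0.11, adjusted p = 0.054; 0.0344 without replicate 2 of the tko25t females), nor was the difference between the sexes (-0.59, SE 0.15, adjusted p = 0.151).

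Vha100-1 acts in neurons, at the synaptic vesicle. It had 439, 386 and 405 in tko25t males, against 330.2, 356 and 353 in wild-type males, and 431, 418 and 427 in tko25t females, against 434, 443 and 439 in wild-type females. The mutants lay above the wild type in males and below it in females (10.6% of all probe sets lay below in females), with log2 fold changes of 0.24 (SE 0.10, adjusted p = 0.149) and -0.04 (SE 0.09, adjusted p = 0.873).

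Vha100-4 is known from the acid-secreting copper cells of the midgut. It had 161, 167 and 145 in tko25t males, against 182, 73.5 and 115 in wild-type males, a wide spread that held the mutant values inside it. In females it had 185, 162 and 201 in tko25t flies, against 115, 120.3 and 149.5 in wild-type flies, without overlap. The log2 fold changes of 0.40 in males (SE 0.25, adjusted p = 0.326) and 0.48 in females (SE 0.14, adjusted p = 0.16) were not called. In males it was called without replicate 1 of the wild-type males (0.70, adjusted p = 0.0453). Vha100-2 and Vha100-4 are next to each other on chromosome 3R in the RefSeq gene order of assembly release 6.

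Vha36-3, a D subunit gene, pointed the other way. It had 90.9, 82.9 and 66.5 in tko25t males, against 92.2, 113 and 108 in wild-type males, and 74.6, 36.3 and 66 in tko25t females, against 84.2, 70 and 113 in wild-type females. The males did not overlap and the females did, with log2 fold changes of -0.35 (SE 0.15, adjusted p = 0.18) and -0.54 (SE 0.26, adjusted p = 0.392). The D subunit gene Vha36-1 had log2 fold changes of 0.34 in males and 0.30 in females over the same arrays.

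The other 11 paralogs had low signal in females and more in males: Vha68-3 (A subunit), Vha36-2 (D), Vha14-2 (F), Vha100-3 (a), Vha16-2, Vha16-3, Vha16-4 and Vha16-5 (c), VhaPPA1-2 (c''), VhaAC39-2 (d) and VhaM9.7-d (e). They lay below the brighter share of probe sets tested in females and entered the fits of 12 arrays through their male signal, which itself set the direction of their sex difference, so it is given as a description. Of their 66 female values, all were below the median of their array and 25 below its 25th percentile, whereas 2 of their 66 male values were below the median. For each of the 11 every male lay above every female of the same genotype (28.5% of 11483 probe sets in tko25t and 30.1% in wild-type flies). With no filter on low signal, where all 17 paralogs were tested, 12 were called higher in males in tko25t and 11 in wild-type flies, against 17% and 22.2% of all 18769 probe sets.

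Vha68-3, a copy of the catalytic A subunit that binds and splits ATP, had signals of 410.4, 406 and 396 in tko25t males, against 20.6, 1.9 and 10.9 in tko25t females, and 554, 479 and 520 in wild-type males, against 18.2, 15.3 and 9.8 in wild-type females. The sexes were far apart in both genotypes. Because female values of these genes were low, all below the median of their array, the size of the difference depended on the offset and other settings. For Vha68-3 the log2 difference ran from 2.98 to 5.13 in tko25t and from 3.21 to 4.94 in wild-type flies. Vha36-2 had 176, 153 and 151 in tko25t males, against 1.7, 1.7 and 2.3 in tko25t females, and 153, 132 and 159 in wild-type males, against 2.1, 1.8 and 2.2 in wild-type females. Its female values were all far below the 25th percentile of their arrays, and its log2 sex difference ran from 2.09 to 5.09 in tko25t flies over these settings.

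Vha14-2 had 108, 117 and 82.4 in tko25t males, against 8.1, 3.7 and 14.1 in tko25t females, and 139, 146 and 111 in wild-type males, against 4, 2.6 and 1.6 in wild-type females. Vha100-3 had 186, 178 and 151 in tko25t males, against 24.9, 21.7 and 9.8 in tko25t females, and 240.0, 202 and 199 in wild-type males, against 22.2, 16.1 and 18.7 in wild-type females. VhaM9.7-d had 254, 229.9 and 218 in tko25t males, against 40.2, 12.4 and 35.8 in tko25t females, and 281, 232 and 319 in wild-type males, against 33.7, 34.3 and 28 in wild-type females. For these genes, copies of the F, a and e subunits, the sexes were far apart, while the genotypes overlapped in males for Vha14-2 and VhaM9.7-d and did not for Vha100-3.

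Next come the 4 copies of the c subunit. Vha16-5 had 125, 135 and 125 in tko25t males, against 22.2, 16.2 and 22.3 in tko25t females, and 126, 139 and 147 in wild-type males, against 19.9, 20.2 and 14.3 in wild-type females. Vha16-2 had 61.7 to 74.1 in tko25t males, against 4.8 to 11.4 in tko25t females, and 40.3 to 77.2 in wild-type males, against 3.5 to 14.2 in wild-type females. In both genes the sexes were apart and the genotypes overlapped. Vha16-3 had 58.5 to 70.5 in tko25t males, against 3.7 to 13.4 in tko25t females, and 70.1 to 101 in wild-type males, against 2.8 to 5.7 in wild-type females. Vha16-4 had 50 to 61.7 in tko25t males, against 8.1 to 16 in tko25t females, and 55.7 to 79.3 in wild-type males, against 8.4 to 14.8 in wild-type females. In these 2 genes too the sexes did not overlap. Vha16-2 and Vha16-3 lie 1 gene apart on chromosome 3L.

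The last of the 11 are VhaPPA1-2 and VhaAC39-2. VhaPPA1-2, which lies 1 gene from VhaPPA1-1 on chromosome 3R, had 70.7 to 106 in tko25t males, against 6.3 to 21 in tko25t females, and 73.4 to 96.5 in wild-type males, against 7.8 to 29.8 in wild-type females. VhaAC39-2 had 47.5 to 61.7 in tko25t males, against 20.8 to 27.4 in tko25t females, and 65.3 to 114 in wild-type males, against 24.5 to 39.1 in wild-type females. Both had every male above every female, and the male values of VhaAC39-2 were lower in tko25t flies without overlap. VhaAC39-2 had the smallest ratio of male to female mean signal of the 11, 2.28 in tko25t and 2.85 in wild-type flies.

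**Figure D3:**
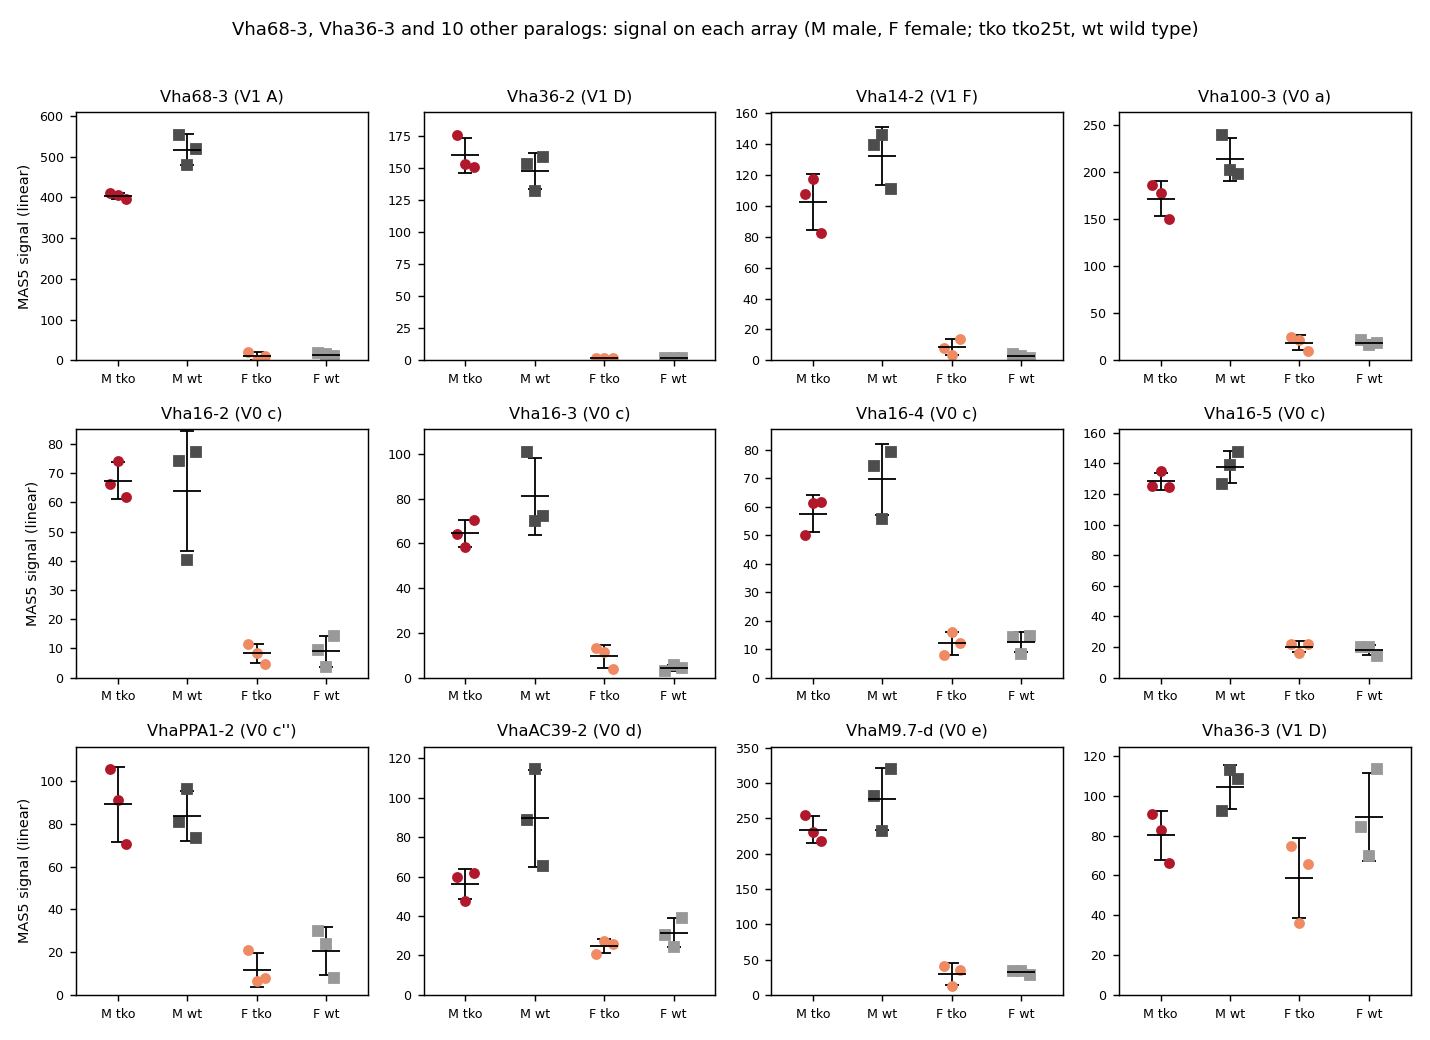
MAS5 signal (linear scale, from 0) of the 11 paralogs with low signal in females, and of Vha36-3, which had signal in both sexes, on each array; points and squares are arrays, the wide line is the mean and the bars are 1 SD (n = 3). For each of the 11 every male lies above every female of the same genotype, and the tko25t males of Vha68-3 lie below all wild-type males.

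The genotype comparison in males did not enter the choice of these 11 genes. Vha68-3 fell in tko25t males, where it had 410.4, 406 and 396, against 554, 479 and 520 in wild-type males (log2 fold change -0.35, SE 0.10, adjusted p = 0.0477; 5.74% of all probe sets tested in males were called lower). None of the other 10 was called, with the largest log2 fold change in VhaAC39-2 (-0.55, SE 0.20, adjusted p = 0.111). Mean signals were lower in tko25t males for 8 of the 11 and higher for 3, with ratios from 0.628 to 1.08 and a median log2 fold change of -0.23. The summed signal of 15 testis genes moved with them, at 25814 to 32336 in tko25t males, against 33110 to 38186 in wild-type males, and 5 of the 15 were called lower with a median of -0.33. The part of the testis share of RNA in the values of the 11 was not tested.

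Between the sexes the 12 widely expressed genes had small differences, none of them called higher in males. In tko25t flies 3 of the 12 were lower in males than in females, 9 did not pass and none was higher, with a median log2 difference of -0.06. Over all 11483 probe sets 66.7% were called, 40.4% as lower and 26.4% as higher in tko25t males, and the median was -0.17. In wild-type flies 5 were lower, 7 did not pass and none was higher, with a median of -0.15, against 72.5% of all probe sets called, 43.3% as lower and 29.2% as higher, and a median of -0.18. These counts depended on the scaling and the arrays: after quantile normalization 7 in tko25t and 11 in wild-type flies were called lower, with medians of -0.28 and -0.31, and without the 3 arrays named above 2 in each. In tko25t flies 1 was lower without replicate 2 of the males or replicate 3 of the females.

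Vha36-1 differed most, with 1064 to 1089 in tko25t males, against 1581 to 1771 in tko25t females, and 782 to 889 in wild-type males, against 1288 to 1415 in wild-type females. The sexes were far apart in both genotypes, with log2 differences of -0.64 (adjusted p = 2.78e-05) and -0.68 (adjusted p = 1.38e-05). Vha55 was also called lower in males of both genotypes (-0.28 in tko25t, adjusted p = 0.0347, and -0.48 in wild-type flies, adjusted p = 0.00146). Its tko25t call was kept in 6 of 12 fits with 1 array left out, with adjusted p up to 0.0938. That call was also lost with no filter on low signal and with limma without the trend of variance. VhaAC39-1 (-0.26) was called lower in males among tko25t flies, and Vha44 (-0.39), Vha13 (-0.30) and Vha100-2 (-0.25) among wild-type flies. With 1 array left out the call of VhaAC39-1 was kept in 10 of 12 fits and that of Vha100-2 in 8 of 12. Without the 3 arrays named above, with 1 wild-type male array left, the wild-type values were -0.36 for Vha44, -0.25 for Vha13 and -0.27 for Vha100-2. The sex differences of the 2 genotypes were not called different for any gene of this paragraph, since that is the same test as the difference in genotype effect between the sexes.

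For Vha16-1, 2 probe sets are on the array. They gave like genotype effects, 0.27 and 0.26 in males and 0.26 and 0.25 in females on the log2 scale. In the average over the sexes the brighter one was not called (0.26, adjusted p = 0.0867) and the other was called higher (0.26, adjusted p = 0.0376). They disagreed on sex: the brighter one had log2 differences of -0.01 in tko25t and -0.02 in wild-type flies, and the other -0.71 (adjusted p = 2.93e-05) and -0.73 (adjusted p = 1.87e-05). The level of this gene in males relative to females is therefore uncertain. Another 6 members had probe sets that the array maker marks as shared between transcripts (Vha55, Vha26, Vha44, Vha100-2, Vha100-1 and VhaAC45), and cross-hybridisation among gene copies was not tested.

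Among the paralogs and accessory genes with signal in both sexes, the sex differences ran both ways. VhaAC45RP was higher in males, by a log2 of 0.60 in tko25t (adjusted p = 3.91e-04) and 0.67 in wild-type flies (adjusted p = 1.20e-04), as was VhaM9.7-a, by 0.69 (adjusted p = 0.00507) and 0.45 (adjusted p = 0.0422). The second of these calls was kept in 5 of 12 fits with 1 array left out, with log2 values down to 0.30 and adjusted p up to 0.181, and was lost with no filter on low signal. VhaM9.7-c was lower in males, by -0.51 in each genotype (adjusted p = 0.00645 and 0.00564). Among wild-type flies its value was -0.35 without the 3 arrays named above, where 1 wild-type male array is left. Vha100-5 was lower in males among tko25t flies (-0.59, adjusted p = 2.86e-04), with 0.00 among wild-type flies. Vha100-1 had -0.05 among tko25t flies (adjusted p = 0.593) and was lower in males among wild-type flies (-0.33, adjusted p = 0.00354). The wild-type value of Vha100-1 was -0.31 without those 3 arrays. VhaAC45, Vha100-4 and Vha36-3 were not called between the sexes in either genotype.

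**Figure D4:**
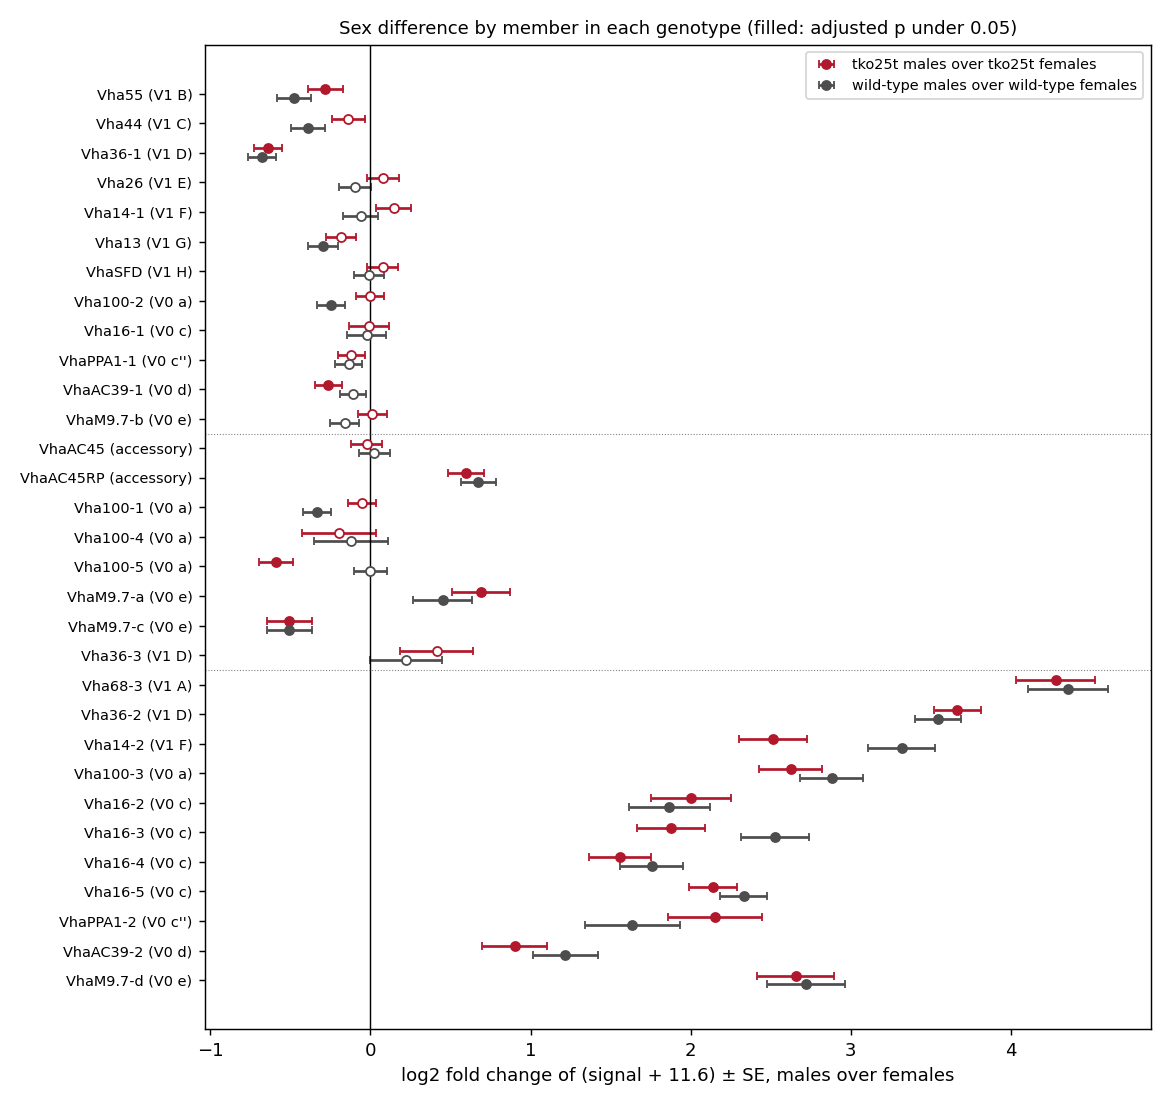
Log2 difference of signal plus offset, males over females, for each member within tko25t flies (red, upper point of each pair) and within wild-type flies (grey, lower point), with bars of 1 SE; filled points passed an adjusted p under 0.05. The 12 widely expressed genes at the top lie between -0.68 and 0.15, and the 11 paralogs at the bottom lie right of 0 at distances that depend on the offset, since their female signals were low.

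Other genes linked to the pump mostly did not pass the test. Their list was mixed: regulators of the pump, ion carriers and channels, carbonic anhydrases, and genes of lysosomes and autophagy such as Lamp1, cathD and Atg9. Of 20 on the list, 18 had a probe set and 16 were tested, and in males 2 rose and none fell, with a median log2 fold change of 0.12. Over all probe sets tested in males 5.59% were called higher. The 2 were ATP6AP2, the prorenin receptor, which is an accessory protein of the V-ATPase (log2 fold change 0.50, adjusted p = 0.00964), and ClC-c, of the chloride channel and exchanger family (0.51, adjusted p = 0.0351). In females none was called and the median was 0.05, with 0.35 for ATP6AP2 (adjusted p = 0.121). In the average over the sexes ATP6AP2 (0.43, adjusted p = 8.06e-04) and Rbcn-3B (0.28, adjusted p = 0.041), part of the complex that helps V1 join V0, were called higher. Over all probe sets 5.58% were called higher in the average, and 2.04% were called in either direction in females. Of 15 genes of the mitochondrial ATP synthase, the related rotary enzyme that makes ATP, none rose and 1 fell in males, with a median of -0.08. Over all probe sets tested in males 5.74% were called lower. The gene that fell was ATPsynGL (-0.35, adjusted p = 0.0481), which was higher in males than in females (log2 difference 2.99 in wild-type flies). None of the 13 tested in females was called, with a median of -0.01.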

How the data were processed

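The deposited intensities are MAS5 signals on a linear scale, which the authors computed with the GCOS software and scaled array by array (trimmed means of 150.004 to 150.005). No detection calls were used here. Of 18952 probe sets, 183 are controls and were left out. In the array annotation 13647 probe sets have 1 symbol, 402 several and 4720 none. No 2 arrays held the same values, and arrays of a group correlated at 0.952 to 0.987. In place of the detection filter of the study's methods, the brightest 53% of probe sets in males and 52% in females, by mean signal, were tested, and their union in fits of all 12 arrays. The 25th percentile of signal (median over arrays, 11.6) was added before log2. The limma package (3.58.1, R 4.3.3) then tested the genotypes in each sex and the sexes in each genotype. Its prior variance followed the mean signal, and p-values were adjusted by Benjamini-Hochberg over all probe sets tested. The scripts were tested on simulated data. Precision is limited by the number of arrays, and the arrays of a group came from separate groups of flies.

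All members are named, with values per array for those called by genotype and for subunits with several genes. The widely expressed set was taken from what is known of the tubule V-ATPase. The members, gene lists and tests were chosen with earlier results of these data known. Alternatives were the offset, no filter on low signal, quantile normalization, limma without the trend, each array left out, the replicate number as a block, any probe set of a gene, SAM and leaving out the 3 arrays named in the text for transcripts of the opposite sex. Gene order was taken from RefSeq release 6 by symbol. Promoter and protein sequences were not used here.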

Additional observations from a re-analysis of the deposited data

Results flagged for a closer look

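Vha100-1, the a subunit gene that acts in neurons, had values on opposite sides of the wild type in the sexes: all 3 tko25t males lay above all wild-type males (15.5% of probe sets tested did), and all 3 tko25t females below all wild-type females (10.6% did). Neither change was called, with a log2 of 0.24 in males (adjusted p = 0.149) and -0.04 in females (SE 0.09, adjusted p = 0.873). The genotype effect in males exceeded that in females by a log2 of 0.28 (standard error 0.12), and the test of this difference was not passed (limma, adjusted p = 0.358 over 11483 probe sets).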

How the results depend on the processing

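In tko25t against wild-type males, 12 members were called, and 12 with an offset of 2.9 or 46.4, 8 after quantile normalization, 5 with no filter on low signal, 5 without the trend of variance, 1 with SAM and 4 to 6 with 1 array left out. Among the 4 genes called with each array left out the largest adjusted p was 0.0486. Without the 3 arrays that held transcripts of the opposite sex it was 0, with 1 wild-type male array left, whose spread was taken to be that of the mutants. In females 0 members were called, and 0 to 2 with 1 array left out. In the average over the sexes 11 were called, 8 to 12 with 1 array left out and 3 without the 3 arrays. Of the 20 members tested in both sexes, 7 in tko25t and 9 in wild-type flies were called between the sexes (66.7% and 72.5% of all probe sets), and 12 and 16 after quantile normalization. No called member changed its sign under any alternative. Same-numbered arrays did not deviate together in all pairs (correlations -0.12 to 0.10 in males and -0.00 to 0.37 in females). Arrays with different numbers had correlations of -0.19 to 0.17 in males and -0.40 to 0.19 in females. With 3 arrays per group this cannot settle whether the numbers pair the samples. With the replicate number as a block, 9 members were called in males, 1 in females (Vha100-5, adjusted p = 0.0489) and 12 in the average, with counts between the sexes as before. Signals of 11 members were low in females, below the median of their array. Their genotypes were not compared within females, but these dim values enter their average and difference over the sexes.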
